A study of Mus musculus with 6 samples.

Results

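The genes described here fold, modify and dispose of secretory proteins in the endoplasmic reticulum (ER). They comprise chaperones, disulfide isomerases, components of ER-associated degradation (ERAD) and sensors of the unfolded protein response (UPR). Of 36 listed names, 35 genes remained, because Vimp is the older symbol of Selenos. The members were chosen by name, with earlier results of these data known. Every probe set annotated to a listed gene was taken, 78 in all, and the brightest by its mean over the 6 arrays stood for the gene. All 35 genes passed the filter on dim probe sets, among 12715 genes that passed it and 18193 with a probe set of 1 gene on the array.

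Gene expression had been measured in primary chondrocytes of Slc39a13-knockout (KO) and wild-type mice, with 3 Affymetrix mouse genome arrays of each and 1 RNA per array. Slc39a13 encodes the zinc transporter ZIP13, and its germline knockout replaced several exons with a neomycin cassette in embryonic stem cells. Rib cage cartilage of newborn mice was digested with collagenase to free the cells, which were then cultured, and no sort was described. Sex and strain of the mice on the arrays were not given in the sources used here, nor whether the arrays of a group came from separate mice or cultures. The p-values therefore reflect how far these arrays varied, and part of that variation may be technical. In such bulk RNA, fewer cells of a type and less RNA per cell cannot be told apart.

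Chondrocytes secrete large amounts of collagen and proteoglycan, and these are folded in the ER. BiP, encoded by Hspa5, holds nascent chains together with J-domain cochaperones, while calnexin and calreticulin hold glycoproteins and disulfide isomerases pair their cysteines. Chains that do not fold are passed by ERAD to the cytosol for degradation. When unfolded chains build up, the sensors IRE1, PERK and ATF6 become active. Transcription of chaperone and ERAD genes then rises, in part through the ER stress response element (ERSE) in their promoters.

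The ERSE pairs CCAAT with CCACG at a distance of 9 bases (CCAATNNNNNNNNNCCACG), and the type II element (ERSE-II) reads ATTGGNCCACG. Both strands of RefSeq promoters (GRCm38.p6, 250 bases before to 50 after the start of a gene) were searched for these letters, and 29 of the 35 genes had an entry. An ERSE was found in 9 of these 29 (31.0%), against 37 of all 27025 genes in the table (0.137%), and an ERSE-II in 2, Dnajb11 and Herpud1 (6.90%), against 12 of all genes (0.044%). The elements are shown for 8 genes that differed in how they moved between KO and wild-type cells, with capitals marking the paired motif. Sequences run 5′ to 3′ on the strand of the gene, so that an element on the opposite strand appears as CGTGG before ATTGG. A match is a description of letters and not a binding site.
Creld2 (chr15:88819508-88819550, + strand): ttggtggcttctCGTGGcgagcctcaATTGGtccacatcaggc
Derl3 (chr10:75893230-75893272, + strand): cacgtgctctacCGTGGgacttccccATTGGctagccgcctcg
Hspa5 (chr2:34772013-34772055, + strand): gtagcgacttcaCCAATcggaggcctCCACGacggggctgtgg
Calr (chr8:84847063-84847105, − strand): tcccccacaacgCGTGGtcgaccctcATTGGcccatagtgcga
Canx (chr11:50325788-50325830, − strand): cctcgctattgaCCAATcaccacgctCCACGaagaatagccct
Hsp90b1, distal (chr10:86705626-86705668, − strand): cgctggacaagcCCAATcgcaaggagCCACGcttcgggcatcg
Hsp90b1, proximal (chr10:86705521-86705563, − strand): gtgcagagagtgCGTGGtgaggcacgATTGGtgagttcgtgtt
Dnajb11, ERSE-II (chr16:22857843-22857871, + strand): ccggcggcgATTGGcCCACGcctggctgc
Herpud1, ERSE-II (chr8:94386365-94386399, + strand): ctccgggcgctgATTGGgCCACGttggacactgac

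Slc39a13 itself had signals of 100, 196 and 165 in KO cells, against 901, 1081 and 991 in wild-type cells. Its log2 fold change, KO minus wild type on the log2(signal + 7.96) scale used throughout, was −2.67 ± 0.22 (SE; limma with Benjamini-Hochberg adjustment, adjusted p = 0.000196), and whether its probe set lies in the replaced exons was not known. Array medians were 108, 82.0 and 83.1 in KO cells and 88.4, 80.7 and 83.7 in wild-type cells. The array of KO 1 stood apart, with correlations of 0.921 to 0.925 to the others, which correlated with each other at 0.944 to 0.960. On KO 2 and WT 3, but on no other array, Xist was high and Y-linked transcripts low, so that both groups held arrays of both sexes and RNA of more than 1 animal.

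Most of the ER genes had higher signals in KO than in wild-type cells, and the largest increases were those of Derl3, Creld2, Sdf2l1, Hyou1 and Dnajb11. By limma, 9 genes rose in KO cells, which is 25.7% of the 35 against 4.64% of all tested genes. These were Creld2, Sdf2l1, Hyou1, Dnajb11, Manf, Erp44, Sel1l, Derl3 and Ern1. As the list was chosen with earlier results of these data known, its shares describe it and are no test of the list. Dnajb9 was the 1 gene that fell, 2.86% of the 35 against 4.68% of all tested genes, and 25 genes did not pass an adjusted p of 0.05. KO and wild-type signals did not overlap for 23 genes that were higher in KO cells, against 16.0% of all tested genes, and for 2 that were lower, Dnajb9 and Canx, against 14.9%. The median log2 fold change was 0.20 over the 35 genes and 0.01 over all tested genes, with a range of −0.44 to 1.11 among the 35. On each KO array the median gene lay above its wild-type mean by a similar amount, by 0.23, 0.22 and 0.23 on the log2 scale, while the wild-type arrays lay at −0.018, 0.017 and −0.004. Above the wild-type mean lay 31 genes on KO 1, 27 on KO 2 and 32 on KO 3. The number of genes that rose fell to 5 without KO 2, or without any 1 of the wild-type arrays, and these 5 were Creld2, Sdf2l1, Dnajb11, Manf and Ern1. The calls over all genes fell with it, to 361 higher without KO 2 and to 253, 225 and 267 without WT 1, WT 2 and WT 3, against 590 with all arrays. With arrays centred on their medians, 2 of the 35 rose, Creld2 and Sdf2l1, and 0 fell, while over all genes the calls were 106 higher and 230 lower, against 590 higher and 595 lower with the signals as deposited.

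**Figure D1:**
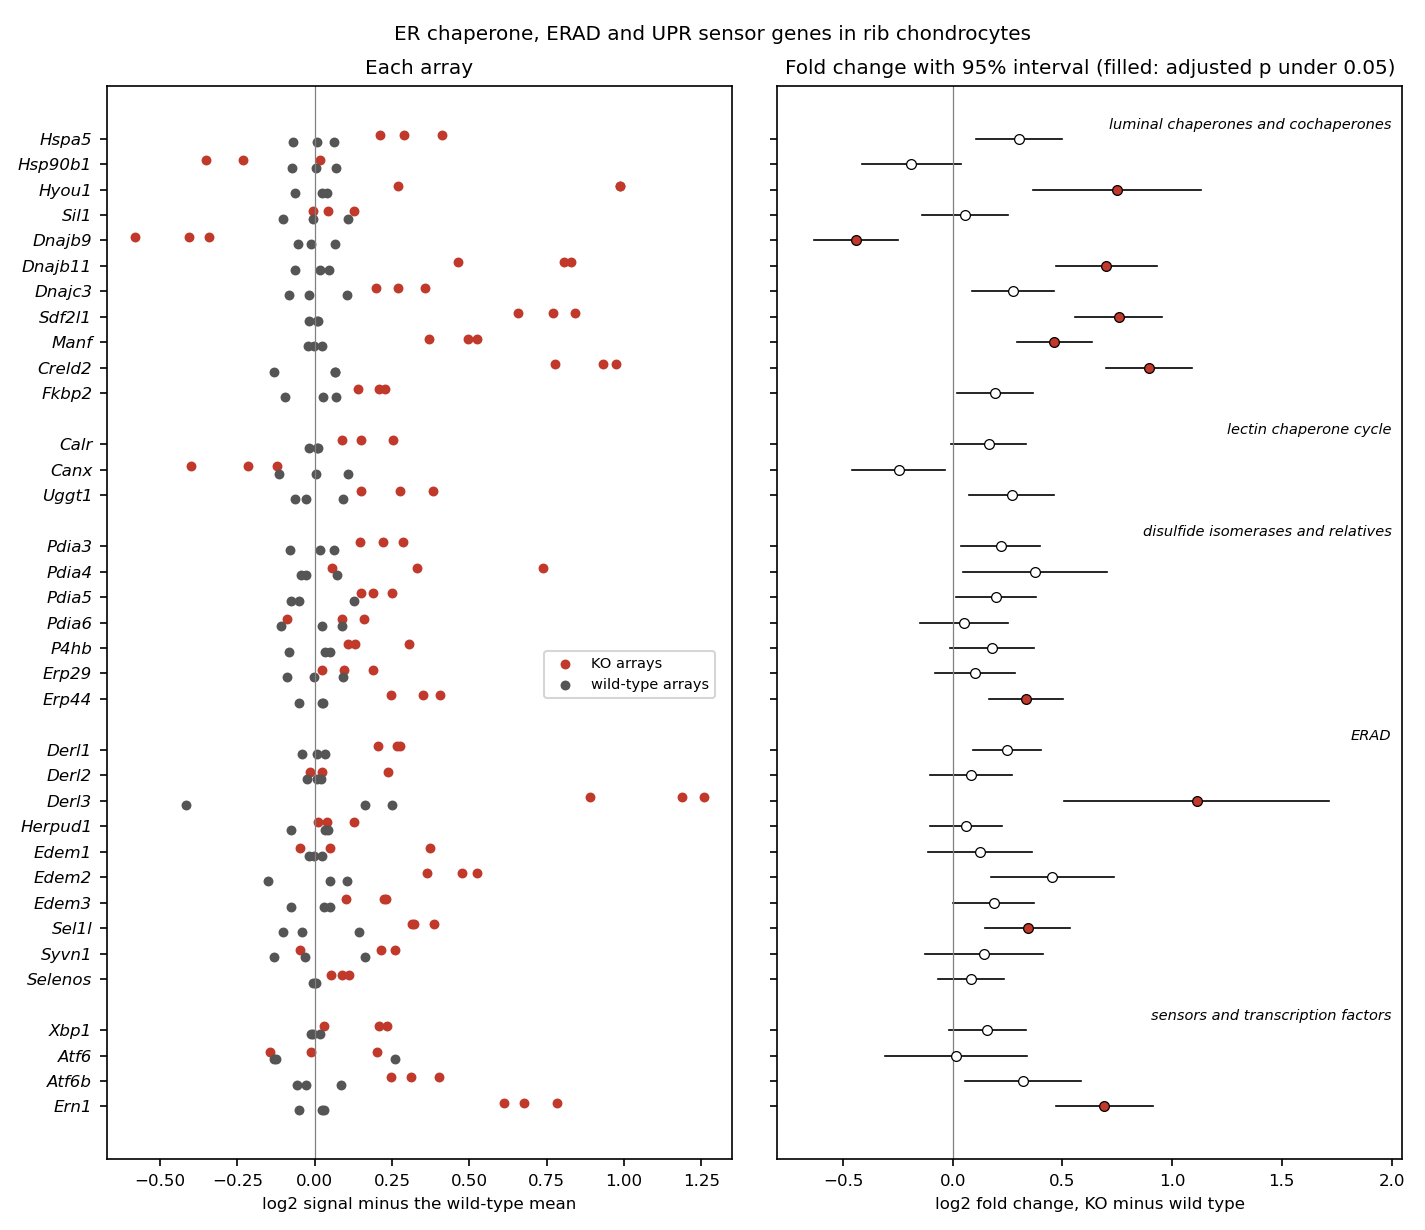
The left panel plots, for each of the 35 genes grouped by role, the log2 signal of every array minus the wild-type mean, with KO arrays in red and wild-type arrays in grey. The right panel gives the log2 fold change, KO minus wild type, with its 95% interval, and filled points mark the 9 genes that rose and the 1, Dnajb9, that fell.

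Among 11 luminal chaperones and cochaperones, 5 rose and 1 fell, and their median log2 fold change was 0.30. Creld2, an ER-resident protein induced by ER stress, had signals of 3718, 4143 and 4261 in KO cells, against 2268, 2269 and 1978 in wild-type cells. It rose 1.86-fold, with a log2 fold change of 0.89 ± 0.09 (SE, limma adjusted p = 0.000537). Every KO array lay well above every wild-type array, and the gene passed with each array left out. For Sdf2l1, which binds the J-domain protein ERdj3, signals were 1417, 1488 and 1309 in KO cells and 816, 831 and 834 in wild-type cells. This 1.69-fold rise (log2 0.76 ± 0.09, limma adjusted p = 0.00124) was seen on every KO array, and the wild-type arrays lay close to one another. Its partner ERdj3, encoded by Dnajb11, which delivers unfolded chains to BiP, moved in the same direction. Dnajb11 had signals of 3484, 3429 and 2702 in KO cells and 1980, 2021 and 1872 in wild-type cells, a 1.63-fold rise (log2 0.70 ± 0.10, limma adjusted p = 0.00415). KO 3 was the lowest KO array for Dnajb11 and still above all wild-type arrays.

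Manf, a small ER protein that is also secreted under stress, had signals of 13884, 15486 and 15175 in KO cells and 10932, 10732 and 10605 in wild-type cells. The groups lay far apart relative to their spread, and the rise was 1.38-fold (log2 0.46 ± 0.08, limma adjusted p = 0.00571). Hyou1, a large relative of Hsp70 that exchanges the nucleotide of BiP, had signals of 1721, 1724 and 1046 in KO cells, against 827, 880 and 890 in wild-type cells. KO 1 and KO 2 were nearly equal and KO 3 lay close to the wild-type arrays, so that the rise of 1.68-fold (log2 0.75 ± 0.17, limma adjusted p = 0.0251) had a wide error and was lost, at an adjusted p of up to 0.0902, when any array but KO 3 was left out. In both of its other probe sets KO 3 was again the lowest KO array, at 264 and 166, and both also rose, by 1.55 and 1.13 on the log2 scale (limma adjusted p = 0.0305 and 0.0436 over all probe sets).

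Dnajb9 went the other way. It encodes ERdj4, a J-domain cochaperone of BiP that binds ERAD clients and represses IRE1, and its signals were 2051, 2316 and 2423 in KO cells and 3210, 2960 and 3046 in wild-type cells. All KO arrays were below all wild-type arrays, with a KO over wild-type ratio of 0.736 (log2 −0.44 ± 0.09, limma adjusted p = 0.0114). The call was lost without WT 1 or without WT 3 (adjusted p of up to 0.0612), and the gene has 1 probe set.

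Hspa5, the gene of BiP, had signals of 35722, 32799 and 31048 in KO cells and 25557, 27012 and 28022 in wild-type cells. The groups did not overlap, yet the log2 fold change of 0.30 (95% interval 0.11 to 0.50) narrowly missed the threshold (limma adjusted p = 0.0582). It passed without KO 3 (limma adjusted p = 0.0344), where higher calls over all genes also grew, to 778 from 590. After quantile normalization it was 0.14 (limma adjusted p = 0.183). The second brightest probe set of Hspa5 had overlapping signals of 16306, 18161 and 19253 in KO cells and 16760, 16517 and 16778 in wild-type cells. Its log2 fold change was 0.10 (limma adjusted p = 0.527 over all probe sets). Hsp90b1 encodes GRP94, the Hsp90 of the ER, and had signals of 12195, 13229 and 15718 in KO cells and 16311, 15608 and 14762 in wild-type cells, which overlapped (log2 −0.19 ± 0.10, limma adjusted p = 0.279). Its second probe set had the opposite sign, with signals of 14326, 15653 and 13829 in KO cells, against 12604, 11710 and 10560 in wild-type cells (log2 0.33, limma adjusted p = 0.0582). Neither direction passed for GRP94. Of the others, Dnajc3, the J-domain cochaperone P58IPK, had a log2 fold change of 0.27 (adjusted p = 0.0693), the prolyl isomerase gene Fkbp2 of 0.19 (adjusted p = 0.156) and Sil1, a nucleotide exchange factor for BiP, of 0.06 (adjusted p = 0.744), all from limma. The second brightest probe set of Dnajc3 gave 0.47 and passed over all probe sets (limma adjusted p = 0.0117). Its further probe sets gave 0.32, 0.23 and 0.02 and did not pass.

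**Figure D2:**
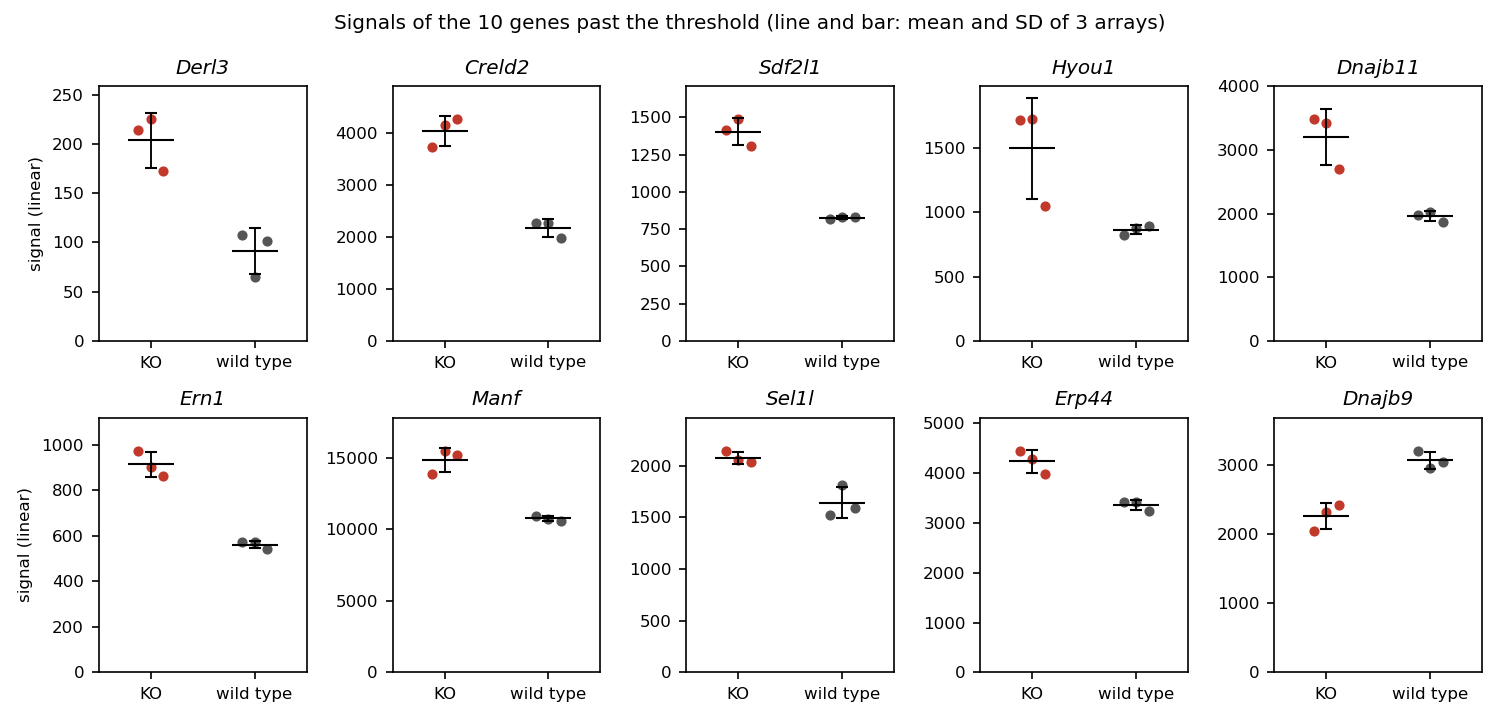
Each panel plots the linear signals of 1 of the 10 genes past the threshold, with 3 KO arrays at left and 3 wild-type arrays at right, and a line and bar for the mean and SD. In 9 panels the KO points lie above the wild-type points, in the panel of Dnajb9 they lie below, and in that of Hyou1 the lowest KO point, at 1046, is KO 3.

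None of the 3 genes of the calnexin and calreticulin cycle passed, and their median log2 fold change was 0.16. Calr, which encodes calreticulin, had signals of 16582, 17825 and 15909 in KO cells and 15022, 15074 and 14766 in wild-type cells. The groups did not overlap in this brightest probe set (log2 0.16 ± 0.08, limma adjusted p = 0.219), while its other probe sets gave 0.44 and 0.43 on the log2 scale and passed over all probe sets (limma adjusted p = 0.0126 and 0.0287). Canx encodes the membrane-bound calnexin, and its signals were 9369, 10651 and 11364 in KO cells, below 11429, 13344 and 12421 in wild-type cells. The highest KO array lay just under the lowest wild-type array (log2 −0.25 ± 0.09, limma adjusted p = 0.137). Uggt1, whose product reglucosylates misfolded glycoproteins so that they re-enter the cycle, had a log2 fold change of 0.27 (limma adjusted p = 0.0854).

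Of 7 disulfide isomerases and their relatives, Erp44 alone rose, and the median log2 fold change was 0.20. ERp44 retrieves unassembled secretory proteins from the early Golgi, and in human cells its binding to clients depends on zinc. Erp44 had signals of 4450, 4282 and 3984 in KO cells and 3420, 3417 and 3246 in wild-type cells. All KO arrays were above all wild-type arrays, by 1.26-fold on average (log2 0.33 ± 0.08, limma adjusted p = 0.0229). Its other probe set did not pass (log2 0.21, limma adjusted p = 0.388), and leaving out KO 2 or any wild-type array ended the call (adjusted p of up to 0.105).

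P4hb, which encodes the classical disulfide isomerase and the β subunit of collagen prolyl 4-hydroxylase, had signals of 22759, 20158 and 19869 in KO cells and 17404, 18875 and 19058 in wild-type cells. The groups were separate by a narrow gap (log2 0.18 ± 0.09, limma adjusted p = 0.226). Pdia4, encoding ERp72, had signals of 1876, 2490 and 1547 in KO cells and 1564, 1461 and 1444 in wild-type cells. KO 2 was far above the rest and KO 3 lay within the wild-type range (log2 0.38 ± 0.15, limma adjusted p = 0.144), and without KO 3 the gene passed (adjusted p = 0.0226). Leaving out KO 3 also raised the higher calls over all genes, to 778 from 590. Pdia3, the isomerase that works with calnexin and calreticulin, had a log2 fold change of 0.22 (adjusted p = 0.126), Pdia5 of 0.20 (adjusted p = 0.169), Erp29 of 0.10 (adjusted p = 0.486) and Pdia6 of 0.05 (adjusted p = 0.768), all from limma.

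In ERAD, 2 of 10 genes rose, Derl3 and Sel1l, and the median log2 fold change was 0.16. Derl3 encodes a derlin, a membrane protein of the retrotranslocation machinery, and had signals of 214, 225 and 172 in KO cells and 108, 65.1 and 101 in wild-type cells. Its groups did not overlap, and its rise of 1.11 ± 0.27 on the log2 scale (limma adjusted p = 0.0308) was the largest of the 35, with a wide error on low signals. Sel1l, the adaptor that links the ligase HRD1 to its substrates, had signals of 2145, 2051 and 2038 in KO cells and 1525, 1810 and 1594 in wild-type cells. KO arrays were tightly grouped above more scattered wild-type arrays, with a 1.27-fold rise (log2 0.34 ± 0.09, limma adjusted p = 0.0374). Both calls were lost when any array but KO 3 was left out, at adjusted p of up to 0.119 for Derl3 and 0.153 for Sel1l. Of 4 other probe sets of Sel1l, 1 passed over all probe sets (log2 0.49, limma adjusted p = 0.0337). The others gave 0.14, 0.18 and 0.66 and did not pass, nor did the brightest at that adjustment (limma adjusted p = 0.0512). With the mean of its probe sets the call of Sel1l was lost (limma adjusted p = 0.092).

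HRD1 is encoded by Syvn1, whose signals of 913, 759 and 942 in KO cells overlapped with 880, 716 and 768 in wild-type cells (log2 0.14 ± 0.12, limma adjusted p = 0.509). Edem2, one of a family of mannosidase-like proteins that mark glycoproteins for degradation, had signals of 511, 554 and 572 in KO cells and 356, 426 and 409 in wild-type cells. The groups were well separated, and at 0.45 ± 0.13 on the log2 scale Edem2 missed the threshold by little (limma adjusted p = 0.0501), as did Derl1 at 0.25 ± 0.07 (limma adjusted p = 0.0519). Edem3 had a log2 fold change of 0.19 (adjusted p = 0.193), Edem1 of 0.12 (adjusted p = 0.512), Derl2 of 0.08 (adjusted p = 0.595) and Herpud1, which organises the HRD1 complex, of 0.06 (adjusted p = 0.670), all from limma. The other probe set of Edem1 had signals of 2129, 2452 and 2678 in KO cells and 1853, 1947 and 1719 in wild-type cells. It gave 0.39 on the log2 scale and passed narrowly over all probe sets (limma adjusted p = 0.0494). Selenos encodes a selenoprotein that recruits the ATPase p97 to derlins, and had signals of 8408, 8625 and 8773 in KO cells and 8118, 8139 and 8090 in wild-type cells (log2 0.08 ± 0.07, limma adjusted p = 0.488).

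Of the 4 sensor and transcription factor genes, Ern1 rose, and the median log2 fold change was 0.24. Ern1 encodes IRE1α, the kinase and endoribonuclease that splices Xbp1 RNA. It had signals of 974, 904 and 863 in KO cells and 573, 571 and 542 in wild-type cells. The groups were far apart and each was narrow, with a 1.62-fold rise (log2 0.69 ± 0.10, limma adjusted p = 0.00377), although its 3 other tested probe sets gave log2 fold changes of 0.02, −0.11 and −0.066 and did not pass. Mean signals of these 3 were 162, 75.4 and 70.1 in KO cells and 157, 81.1 and 73.7 in wild-type cells. With the mean of its tested probe sets, the call of Ern1 was lost (log2 0.13, limma adjusted p = 0.695).

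Xbp1, the transcription factor made active by that splicing, had signals of 11469, 11264 and 9965 in KO cells and 9669, 9724 and 9860 in wild-type cells. KO 3 lay just above the wild-type arrays and KO 1 and KO 2 further away (log2 0.16 ± 0.08, limma adjusted p = 0.248). The signals do not tell spliced from unspliced Xbp1 RNA. Atf6, whose product is cleaved in the Golgi to release a transcription factor, had overlapping signals of 511, 560 and 651 in KO cells and 515, 517 and 678 in wild-type cells (log2 0.01, 95% interval −0.31 to 0.34, limma adjusted p = 0.965). For its paralog Atf6b, signals were 548, 514 and 490 in KO cells and 405, 396 and 438 in wild-type cells, and this separation (log2 0.32 ± 0.12) did not pass (limma adjusted p = 0.125).

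Of the 78 probe sets of these genes, 74 passed the filter. Tested over all probe sets, 15 of the 74 rose in KO cells, against 3.44% of all probe sets, and 3 fell, against 3.37%. Of 21 genes with more than 1 tested probe set, 7 had probe sets of opposite sign, namely Hspa5, Hsp90b1, Canx, Selenos, Xbp1, Atf6 and Ern1. Averaged over a gene's probe sets, the log2 fold change turned its sign for 4 genes, to −0.068 for Hspa5, 0.071 for Hsp90b1, 0.012 for Canx and −0.12 for Selenos, none of which passed. Hspa5 and Selenos each had 1 probe set that fell. That of Hspa5 had signals of 775, 1003 and 834 in KO cells and 1568, 1133 and 1296 in wild-type cells (log2 −0.61, limma adjusted p = 0.0323). For Selenos the signals were 4878, 5358 and 6176 in KO cells and 7118, 7052 and 6954 in wild-type cells (log2 −0.37, limma adjusted p = 0.0433). The names of both probe sets mark them as able to bind more than their own transcript. The brightest probe sets of Hyou1, Canx, Derl1, Syvn1, Selenos and Xbp1 carry such names too, and whether any of them do so here was not tested. The third probe set of Selenos, without such a name, had a log2 fold change of −0.087 (limma adjusted p = 0.675).

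**Figure D3:**
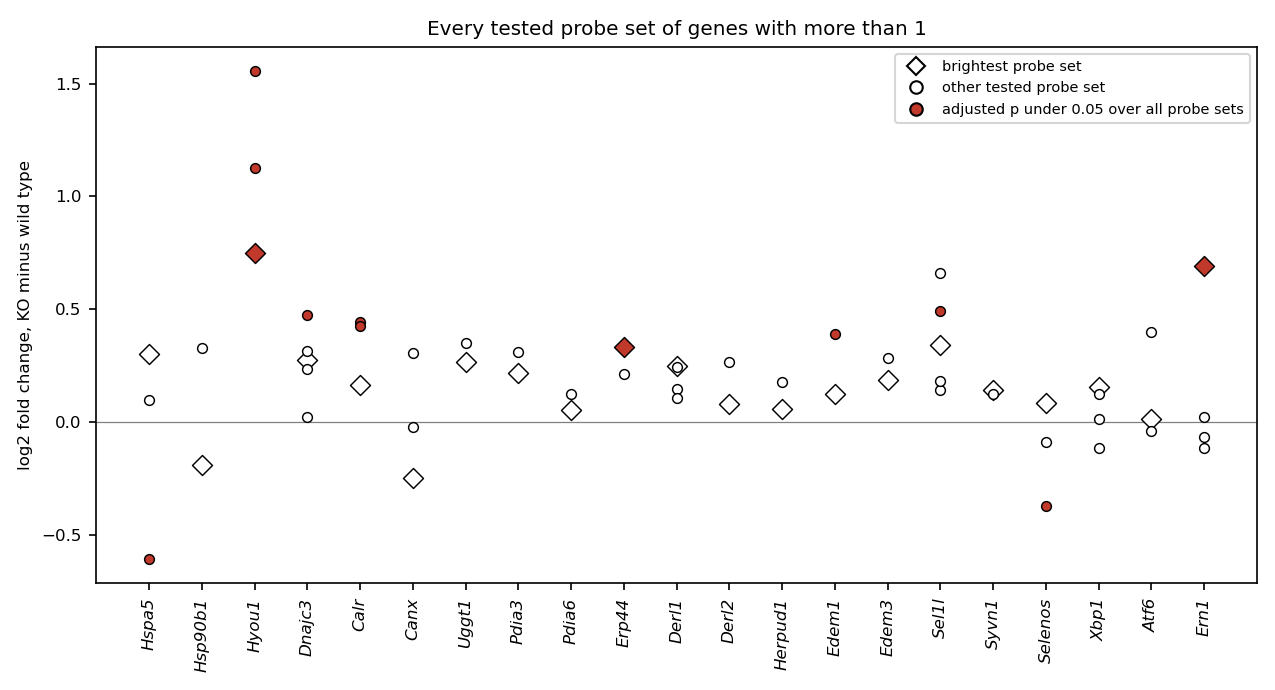
Log2 fold changes, KO minus wild type, of every tested probe set of the 21 genes with more than 1, with a diamond for the brightest and circles for the others. Red marks an adjusted p under 0.05 over all probe sets. Hyou1 has 3 red points above 0, while Ern1 has a red diamond at 0.69 and 3 open circles near 0.

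Genes with and without an exact ERSE match in the window searched were both among those that rose. Of the 9 with one, 2 rose, Creld2 and Derl3, and the median log2 fold change was 0.16 with a range of −0.25 to 1.11. Of 20 genes with a promoter entry and no such match, 5 rose and 1 fell, with a median of 0.21 and a range of −0.44 to 0.76. Of 6 genes without a promoter entry, 2 rose, with a median of 0.175 and a range of 0.014 to 0.75. Over all tested genes, 4.64% rose and 4.68% fell. Hspa5, with its element 65 bases before the start, and Hsp90b1, with 2 elements, did not pass, nor did Calr and Canx. Of the pair with an ERSE-II, Dnajb11 rose, and Herpud1 had a log2 fold change of 0.06. The UPR element TGACGTGG occurred in the promoters of 0 of the 29 genes, against 0.714% of all genes, which says only that these letters were not in this window.

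Beyond the 35 genes, a list of 60 other genes of ER protein folding, quality control and export held 58 that were on the array, of which 55 passed the filter. Among these 55, 11 rose (20.0%, against 4.64% of all tested genes), 1 fell (1.82%, against 4.68%) and 43 did not pass. Their median log2 fold change was 0.09. This list, too, was chosen with earlier results of these data known. Fkbp7, Fkbp11 and Fkbp14 encode peptidyl prolyl isomerases of the secretory pathway, and FKBP14 is mutated in a kyphoscoliotic form of Ehlers-Danlos syndrome in humans. Fkbp7 had signals of 4333, 4341 and 4135 in KO cells and 2511, 2576 and 2574 in wild-type cells (log2 0.74 ± 0.07, limma adjusted p = 0.000472). Signals of Fkbp11 were 2773, 2789 and 2384 in KO cells and 1448, 1668 and 1478 in wild-type cells (log2 0.79 ± 0.09, limma adjusted p = 0.00124). For Fkbp14 they were 3097, 3089 and 2869 in KO cells and 1719, 1976 and 2001 in wild-type cells (log2 0.67 ± 0.09, limma adjusted p = 0.00192).

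In all 3 isomerase genes the groups lay far apart. Creb3l1 encodes OASIS, an ER-bound transcription factor that acts on the type I collagen gene in mouse osteoblasts. It had signals of 1583, 1353 and 1187 in KO cells and 683, 835 and 825 in wild-type cells (log2 0.81 ± 0.13, limma adjusted p = 0.00495). These 4 genes passed with each array left out. The other 7 that rose were Wfs1, Mogs, Ero1a, Tmx1, Creb3l2, Lman1 and Faf2. Eif2ak3, which encodes the sensor PERK, had a log2 fold change of 0.27 and did not pass (limma adjusted p = 0.161). Selenok, a selenoprotein of the ER membrane, was the gene that fell, with signals of 5518, 7564 and 7580 in KO cells and 8681, 10123 and 9272 in wild-type cells (log2 −0.45 ± 0.12, limma adjusted p = 0.0471). Its groups did not overlap, and the call was lost without KO 2 or without any wild-type array (adjusted p of up to 0.184).

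Marker genes of several cell types differed between the groups beside the ER genes. Summed signals of 12 chondrocyte markers ranged from 133296 to 181318 in KO cells and from 95931 to 112572 in wild-type cells. Such sums weigh the brightest genes most, here Col2a1, which did not pass (limma adjusted p = 0.0837). The 5 that rose were Acan, Col9a1, Col11a1, Col11a2 and Comp, and Col9a3 fell. Sox9, Col9a2, Matn1, Matn3 and Hapln1 did not pass. Of fibroblast and perichondrium markers, 4 of 10 tested rose (Col1a1, Col1a2, Col3a1 and Postn) and 3 fell (Thy1, Pdgfra and Tcf21). Their sums were 69686 to 89546 in KO cells and 50202 to 61440 in wild-type cells. Mesothelial markers were lower, with 9 of 11 tested that fell and sums of 734 to 1234 in KO cells and 5258 to 8965 in wild-type cells. Osteoblast markers summed to 2128 to 3018 in KO cells and 980 to 1503 in wild-type cells, with 2 of 3 tested that rose. Of plasma and B cell markers, whose cells express many of these ER genes at high levels, Sdc1 alone passed the filter, and Cd79a, Cd79b, Ms4a1, Jchain, Mzb1 and Irf4 were below it. Their sum was mostly Sdc1, at 2300 to 3190 in KO cells and 2780 to 3480 in wild-type cells, and says little of the other genes. Sums overlapped between the groups for macrophage, plasma and B cell, endothelial and skeletal muscle markers. Within these, Tnnt3 of muscle rose (limma adjusted p = 0.00124), while Acta1 of muscle (limma adjusted p = 0.0202) and Cd14 of macrophages (limma adjusted p = 0.0422) fell, of 5 muscle and 7 macrophage markers tested. The part of these differences in the results on ER genes was not tested.

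**Figure D4:**
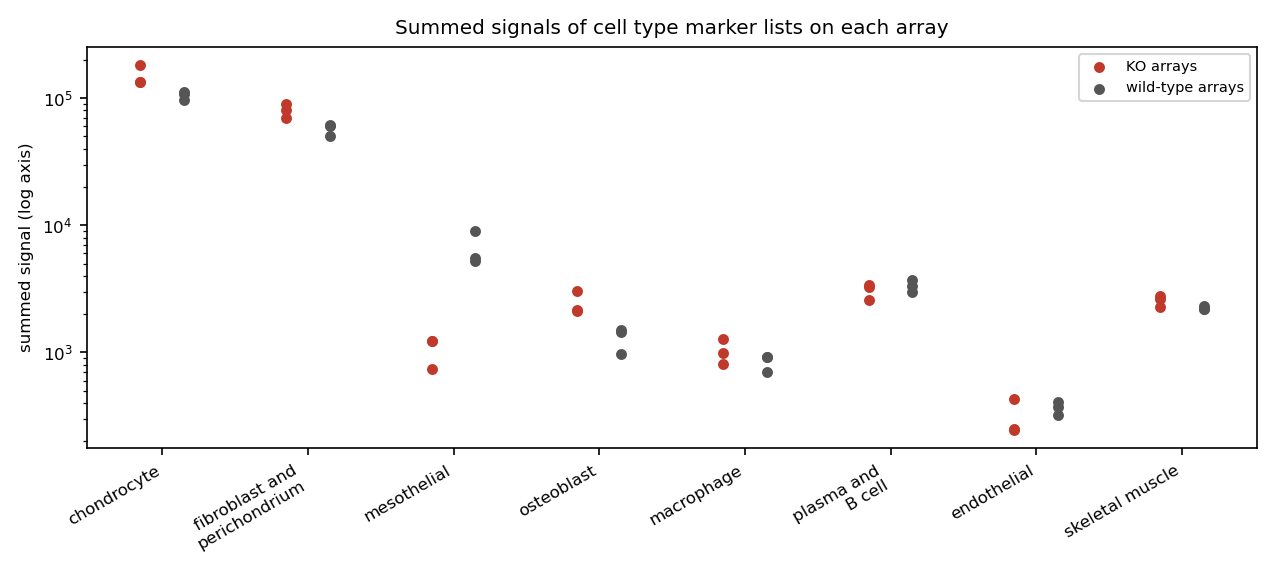
Summed signals of 8 cell type marker lists on each array, on a log axis, with KO arrays in red left of wild-type arrays in grey. Chondrocyte, fibroblast and osteoblast sums lie higher on KO arrays, mesothelial sums lie lower (734 to 1234 in KO cells, 5258 to 8965 in wild-type cells), and the others overlap.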

How the data were processed

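According to the authors' notes, total RNA was labelled as biotinylated cRNA by the one-cycle method and hybridised, and the deposited linear signal intensities were made with MAS5, with no version given, whereas the study's methods name gcRMA. All arrays shared a trimmed mean of 500.003, so the intensities were used as scaled. The array annotation gave 1 gene to 34958 of 45101 probe sets, and the others were left out. Signals were taken as log2(signal + 7.96), the 10th percentile, and a filter removed probe sets whose mean fell below the 40th percentile (5.80, a signal of 47.9). The brightest probe set stood for each of 12715 genes. Differences between KO and wild type were tested in R 4.3.3 by limma 3.58.1 (lmFit, then eBayes with trend). The Benjamini-Hochberg adjustment ran over these genes, at a threshold of 0.05. Other probe sets of a gene were adjusted over all 23294 tested probe sets. Means of groups are over 3 arrays, and their number limits the precision. The fit was tested on simulated data. Array columns left unused numbered 0.

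Members and gene lists were chosen with earlier results of these data known. Values on each array were given for members past the threshold, for Hspa5, Hsp90b1, Calr, Canx, P4hb, Xbp1, Atf6, Ern1, Sel1l and Syvn1 whatever their result, and for up to 4 other ER genes past the threshold in each direction with the largest change. Those of Edem2, Pdia4, Atf6b, Selenos and further probe sets were chosen after they were seen. Promoters were taken from a RefSeq table (GRCm38.p6). Alternatives, 1 choice at a time, were the filter, the pseudocount, quantile or median scaling, the mean of probe sets, every other probe set, dropping probe sets open to cross-hybridisation, limma without trend, a replicate block, sex as a covariate, a 2-fold rule, the methods' t-test and each array left out.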

Additional observations from a re-analysis of the deposited data

How the results depend on the processing

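Of the genes that rose or fell, given as members higher and lower and then as other ER genes higher and lower, the counts were 9, 1, 11 and 1, beside 590 higher and 595 lower over all genes. They were 2, 0, 3 and 0 after median centring (106 and 230 over all genes), where the median log2 fold change of the members was 0.10 and that of all genes −0.084. Limma without its trend gave 3, 0, 3 and 0 (121 and 144 over all genes), and a 2-fold rule without a test 1, 0, 0 and 0 (183 and 261). The methods' t-test gave 21 members and 18 others higher unadjusted (1346 higher over all genes), and 2, 0, 2 and 0 after Benjamini-Hochberg adjustment (41 and 44). Arrays of one sex, a choice made after seeing the data, gave 2, 0, 3 and 0 (93 and 121). With no filter, and with sex as a covariate, 0 other ER genes fell (518 and 459 lower over all genes). Leaving out 1 array gave 5 to 11 members higher and 0 to 1 lower, 5 to 13 others higher and 0 to 3 lower. Over all genes, 225 to 778 were then higher and 196 to 815 lower, and the median of the members was 0.20 to 0.23. Whether same-numbered arrays were paired was not stated. Correlations of 0.04, 0.01 and −0.07 between their deviations showed no pairing, but cannot exclude one. A replicate block gave 6, 1, 7 and 1 (344 and 354 over all genes). Single genes kept their direction and side of the threshold in 784 of 977 values, lost the call in 138, gained one in 28 and turned their sign in 27. On the log2 scale, the sign turned after median centring for Sil1 (−0.039), Pdia6 (−0.043), Atf6 (−0.081), Herpud1 (−0.036), Derl2 (−0.013) and Selenos (−0.011), and after quantile normalization for Atf6 (−0.0074). It turned with the mean of probe sets for Canx (0.012), Hsp90b1 (0.071), Hspa5 (−0.068) and Selenos (−0.12), and without probe sets open to cross-hybridisation for Xbp1 (−0.12) and Selenos (−0.087). Other probe sets had the opposite sign for Canx (0.31), Hsp90b1 (0.33), Hspa5 (−0.61), Atf6 (−0.037), Xbp1 (−0.12), Selenos (−0.37 and −0.087) and Ern1 (−0.11 and −0.066), of which Ern1 alone was past the threshold in its brightest probe set. With 1 array left out, Atf6 ranged from −0.079 to 0.14 and Pdia6 from −0.0030 to 0.12. The causes were not tested. Low signals, such as those of Derl3, limit precision.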
